A study of Rattus norvegicus with 105 samples.

Results

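A set of 6 arrays, 2 of the 35 groups in the whole series, compare the calf muscle of rats that had carried copper pellets for 3 months with that of rats that had carried tantalum pellets for the same time. The members are defined by their labels: 3 arrays labelled copper and 3 labelled tantalum, both at 3 months, with all 22954 probe sets that are not array controls. All animals were male Sprague-Dawley rats, no genotype other than the strain is given, and their age is not used here. Each rat had 4 pellets, 2 in the gastrocnemius of each hind limb, every pellet a cylinder 1 mm across and 2 mm long; tantalum was the implanted control, so both groups had surgery and a foreign object in the muscle and differ by the metal. The question is what copper did beyond what an implanted tantalum pellet did. Each metal had 8 rats per month, and each array was hybridised with 250 ng of RNA pooled from 2 to 3 of them. An array is therefore a pool, and every p-value below rests on the spread between pools, not between rats. Unless another fit is named, that spread is estimated for each probe set over all 35 groups, not from the compared arrays alone. How much of the muscle around the pellet entered the RNA is not stated.

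Copper is an essential metal. Cells take it up through the transporter Slc31a1, hand it to enzymes through chaperones such as Atox1 and Ccs, and export it with the pumps Atp7a and Atp7b. Excess copper and zinc are bound by metallothioneins, small cysteine-rich proteins whose genes are switched on through metal response elements in their promoters by the factor Mtf1. Tantalum is poorly soluble and is used as an inert implant metal. Around an implant macrophages gather, some of them fuse to foreign body giant cells, and a collagen capsule forms.

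The values are log2 intensities of the Clariom S Rat array, normalised by the authors; a difference of 1 is 2-fold. A level is a log2 intensity, and a difference is copper minus tantalum on the log2 scale with its standard error (SE) from the model. The test was limma's moderated test, two-sided, in a model with 1 mean per metal and month over all arrays of the series, 3 in each of 35 groups. A probe set is said to pass, or to be higher or lower as a result, where its Benjamini-Hochberg adjusted p over the 22954 probe sets was below 0.05.

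The 6 arrays resembled each other closely. Their medians lay between 6.43 and 6.50, and between 89.2% and 93.2% of the probe sets of an array lay above the median of its own control probe sets. Markers of fast muscle fibres averaged 13.13 to 13.32 in the copper arrays and 13.30 to 13.35 in the tantalum arrays. The 3 copper arrays were not the closest set: copper replicate 1 correlated with copper replicate 3 at 0.985 over all probe sets, and copper replicate 3 with tantalum replicate 1 at 0.988. Copper replicates 1 and 2 also differed from the other 4 arrays in how dim and bright probe sets were spread, which is described below where it touches a result.

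Of the 22954 probe sets, 10 passed (0.0436%), 6 higher (0.0261%) and 4 lower (0.0174%) with copper. A gene symbol is known for 4 of the 10. Ccl9, a chemokine that attracts macrophages and their relatives, and Mmp12, the elastase made by macrophages, were lower with copper. Cyp4x1, a cytochrome P450 enzyme, and Htr1d, a serotonin receptor, were higher. At an unadjusted p below 0.05 there were 2434 probe sets (10.6%), where 1148 would be reached by chance alone. None of the 10 calls outlasts leaving out copper replicate 1 or 2: 0 probe sets passed in limma in either case (1925 and 1775 had an unadjusted p below 0.05), as in a fit of the 6 arrays alone (2591) or of the 27 arrays of 3 months (3127). Without copper replicate 3, 141 passed, 130 of them higher. Without tantalum replicate 1 or 2, 3 passed, 2 of the 10 among them in each case, and without tantalum replicate 3, 21 passed, 15 of them lower.

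The promoters of the lower genes are shown first, because Ccl9 and Mmp12 moved in the same arrays, and that of the metallothionein gene Mt1 beside them, because it is the textbook target of a rise in free metal. Each is 300 bases, from 250 before to 50 after the gene's start, read 5′ to 3′ on the gene's strand from RefSeq on the rat assembly GRCr8. Mmp12 lies at chr8:12866402-12866701 on the plus strand, Ccl9 at chr10:68868828-68869127 on the minus strand and Mt1 at chr19:10832926-10833225 on the minus strand. Capitals mark an AP-1 site (TGANTCA) in Mmp12 and metal response elements (TGCACNC or TGCGCNC, either strand) in Mt1.
Mmp12: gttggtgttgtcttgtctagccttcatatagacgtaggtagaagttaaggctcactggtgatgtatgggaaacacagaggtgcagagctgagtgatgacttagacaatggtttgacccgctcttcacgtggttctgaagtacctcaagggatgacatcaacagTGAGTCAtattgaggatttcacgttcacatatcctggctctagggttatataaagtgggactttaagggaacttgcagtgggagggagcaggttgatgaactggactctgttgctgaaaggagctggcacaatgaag
Ccl9: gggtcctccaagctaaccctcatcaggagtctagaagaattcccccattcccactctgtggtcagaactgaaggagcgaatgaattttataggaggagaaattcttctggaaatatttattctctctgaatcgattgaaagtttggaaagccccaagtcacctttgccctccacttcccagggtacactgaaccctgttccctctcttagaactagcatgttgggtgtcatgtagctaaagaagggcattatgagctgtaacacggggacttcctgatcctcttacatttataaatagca
Mt1: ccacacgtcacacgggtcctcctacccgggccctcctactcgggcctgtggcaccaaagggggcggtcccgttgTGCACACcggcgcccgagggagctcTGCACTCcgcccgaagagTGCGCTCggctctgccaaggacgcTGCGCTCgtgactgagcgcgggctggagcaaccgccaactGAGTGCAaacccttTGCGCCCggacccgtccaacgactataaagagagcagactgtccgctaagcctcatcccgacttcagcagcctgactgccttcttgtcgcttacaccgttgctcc

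The Mmp12 window held 1 AP-1 match, TGAGTCA, beginning at position -87 from the start, and no metal response element. AP-1 is the Fos and Jun family of factors, and Fos and Jun themselves differed by 0.11 ± 0.39 and -0.01 ± 0.15; this motif was chosen after the values were seen, and 7.33% of 33469 promoters of this length hold it. The Ccl9 window held neither of these motifs nor an antioxidant response element (TGACNNNGC, in 12.1% of promoters). Mt1 held 6 metal response elements and the metallothionein gene Mt2A 4, where 24.2% of promoters hold at least 1. Mt2A also held 1 AP-1 match, and Mt1 and Mt2A held 1 antioxidant response element each. The windows of Cyp4x1 and Htr1d held none of the 3 motifs. A match is a string of letters and not a measured site.

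Ccl9 stood at 4.51, 4.49 and 4.73 in copper replicates 1 to 3 and at 7.14, 7.69 and 4.86 in tantalum replicates 1 to 3. All copper arrays lay below all tantalum arrays, but tantalum replicate 3 was close to them, and the level of the tantalum group was made by replicates 1 and 2. The difference was -1.99 ± 0.37 (SE; 95% interval -2.72 to -1.25), 3.97-fold lower, with an adjusted p of 0.00901 in limma. The copper levels lie below 5.45, under which the dimmest 30% of all probe sets fall, and small differences are compressed there.

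Mmp12 followed the same arrays. It was at 4.73, 5.01 and 4.94 with copper and at 9.19, 10.21 and 5.16 with tantalum. The group means were 4.89 ± 0.15 and 8.19 ± 2.67 (SD, n = 3 each), and the difference of -3.29 ± 0.71 (SE; 95% interval -4.71 to -1.87), 9.80-fold, had an adjusted p of 0.0401 in limma. It was the largest difference of the 22954 probe sets in either direction. With an intensity trend and robust variance estimates in limma, Mmp12 lost its call (adjusted p = 0.0646). The copper arrays agreed closely, at levels that also lie below 5.45, where small differences are compressed, and the spread lies in the tantalum group. The SE and interval rest on the spread over all 35 groups and reflect the tantalum SD of 2.67 only in part. In a fit of the 6 arrays alone the adjusted p of Mmp12 was 0.389 in limma. Without tantalum replicate 1 or 2 the difference was -2.79 and -2.28, with adjusted p of 0.265 and 0.240 in limma, and without tantalum replicate 3 it was -4.81 (adjusted p = 9.54e-06 in limma). Ccl9 lost its call in the same 2 cases, at -1.70 and -1.43 with adjusted p of 0.178 and 0.159 in limma, and stood at -2.84 without tantalum replicate 3. Without copper replicate 1 or 2 the differences hardly moved, but the adjusted p in limma was 0.163 and 0.202 for Mmp12 and 0.111 and 0.104 for Ccl9.

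**Figure D1:**
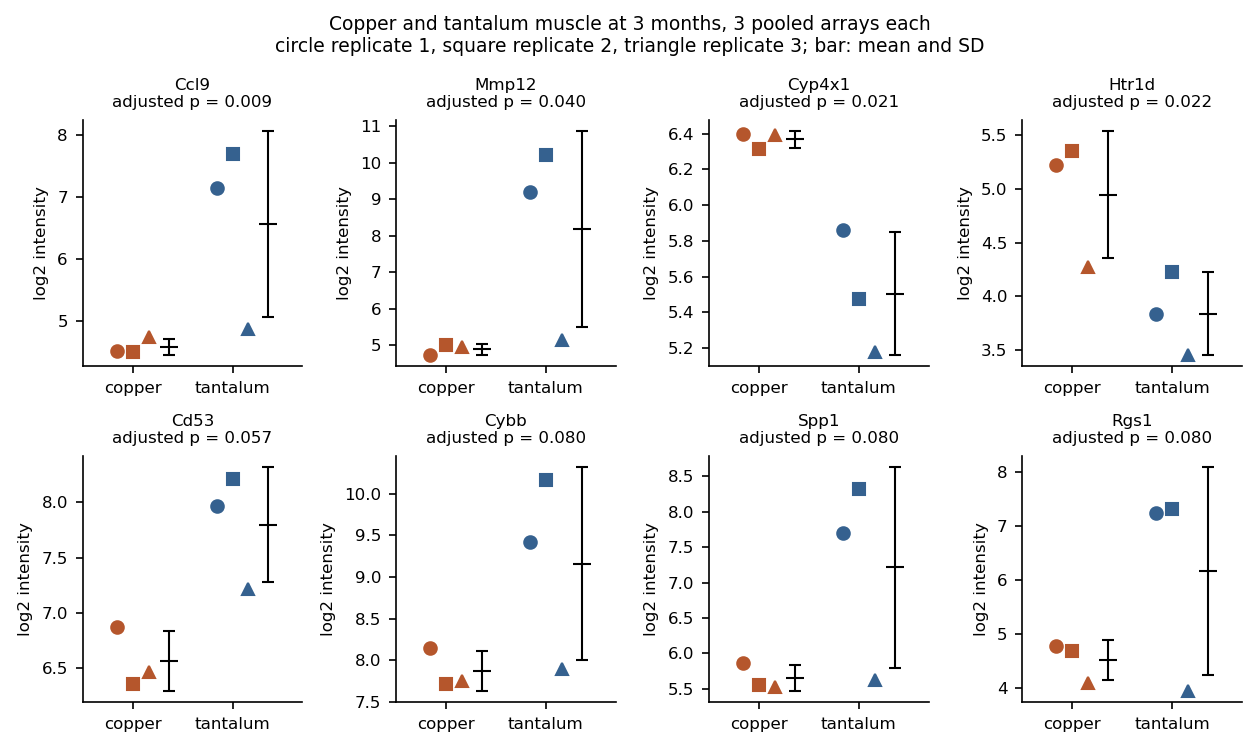
Log2 intensity (vertical axes, each with its own range) of 8 genes in the 3 copper and 3 tantalum arrays at 3 months; symbols give the replicate number and bars the mean and SD of 3 arrays. For Ccl9, Mmp12, Cybb, Spp1 and Rgs1, tantalum replicates 1 and 2 are high and tantalum replicate 3 is near the copper arrays; Cyp4x1 and Htr1d are higher with copper.

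Across the 9 metals at 3 months, copper had the lowest mean of both genes. For Mmp12 the order from low to high was copper (4.89), lead (5.63), aluminum (6.28), cobalt (6.44), iron (6.84), depleted uranium (6.96), nickel (7.97), tantalum (8.19) and tungsten (8.31). Lead was not apart from copper: its arrays were at 4.98, 4.93 and 6.99, so 2 of 3 lay among the copper values for Mmp12. Tungsten and nickel reached levels like those of tantalum, with 8.99, 7.65 and 8.30 and with 7.75, 9.18 and 6.97 for Mmp12. For Ccl9 the means ran from copper (4.58) through lead (4.75), iron (4.99), nickel (5.09), cobalt (5.16), aluminum (5.28), tungsten (5.68) and depleted uranium (5.69) to tantalum (6.56).

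No array of another metal reached the Ccl9 level of tantalum replicates 1 and 2; the highest, with depleted uranium, was at 6.35. Against the equally weighted mean of the other 7 metals, which holds no tantalum array, Mmp12 was lower with copper by -2.02 (adjusted p = 0.041 in limma), and Ccl9 had a difference of -0.66 (adjusted p = 0.335 in limma). Against aluminum, depleted uranium, iron, lead and tungsten alone, the differences were -1.91 ± 0.55 for Mmp12 and -0.70 ± 0.29 for Ccl9, with adjusted p of 0.133 and 0.468 in limma. The differences of other metals from the same tantalum arrays stand beside that of copper as follows, and share those arrays with it. For Ccl9 they were -1.82 with lead, -1.57 with iron, -1.47 with nickel, -1.40 with cobalt, -1.29 with aluminum, -0.89 with tungsten and -0.87 with depleted uranium. Of the 10 probe sets that passed with copper, 4 also passed with nickel, where 784 of 22954 did so, and 3 with cobalt (1254). Lead shared 2, where 4 passed in all, and aluminum 1, where 27 did. Iron and depleted uranium shared 1 each, where 1 passed with either, and tungsten had 0 calls.

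Over the months the copper arrays stayed low and the tantalum arrays moved. Mmp12 with copper averaged 5.23, 4.89, 4.71 and 5.13 at 1, 3, 6 and 12 months, and with tantalum 7.30, 8.19, 5.27 and 4.85. At 1 month 2 of 3 tantalum arrays were high for Mmp12, at 8.94 and 8.21, and the other was at 4.73. The copper minus tantalum difference of Mmp12 was -2.07 at 1 month (adjusted p = 0.309), -0.56 at 6 months and 0.28 at 12 months, none of which passed in limma. Ccl9 differed by -1.34 at 1 month (adjusted p = 0.109 in limma), -0.01 at 6 months and -0.36 at 12 months. The 3 month difference did not differ from that at 1 month by the test of the change in either gene, with a change of -1.22 ± 1.01 in Mmp12 and of -0.64 ± 0.52 in Ccl9 (adjusted p of 0.761 and 0.758 in limma).

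**Figure D2:**
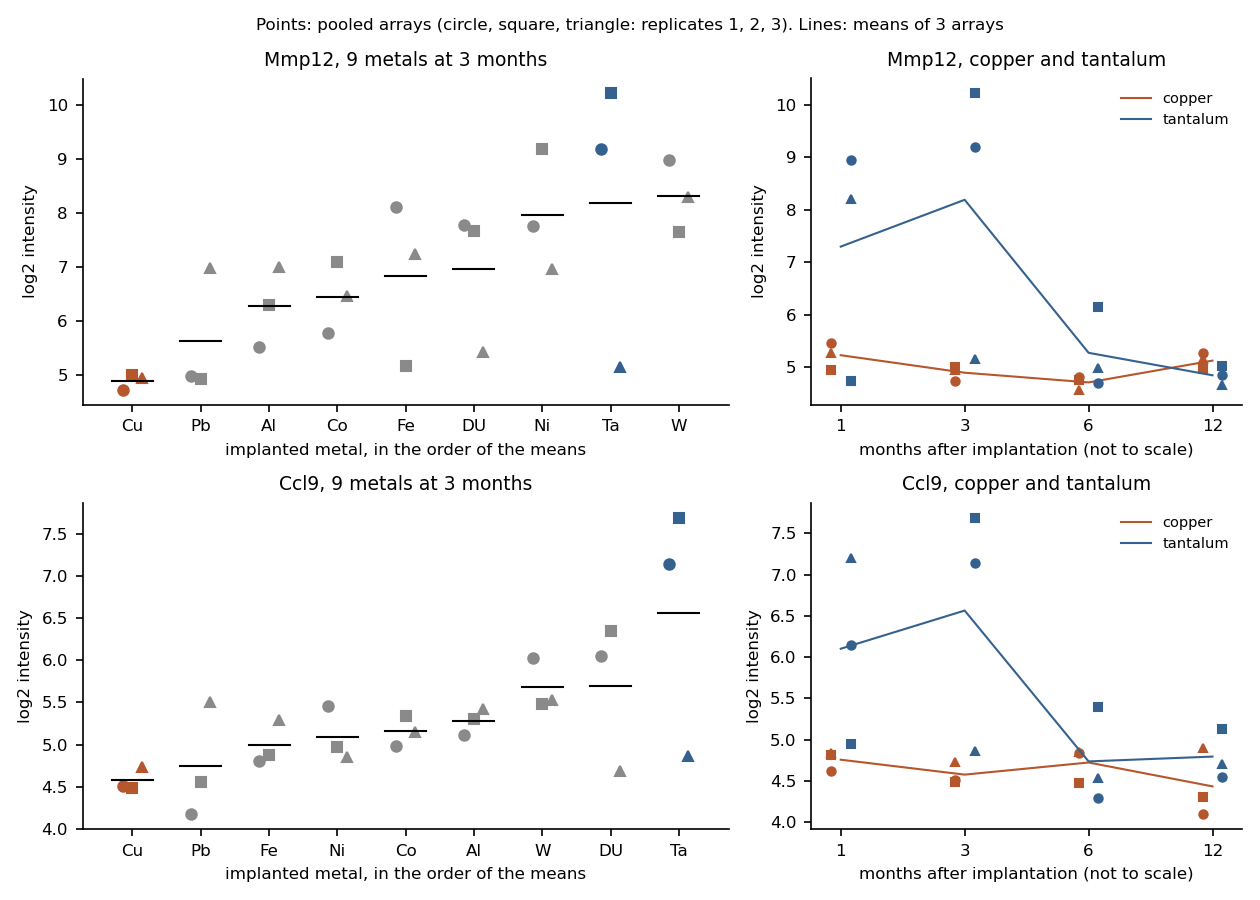
Log2 intensity of Mmp12 (top) and Ccl9 (bottom), on the left for 9 metals at 3 months in the order of their means, on the right for copper and tantalum at 1, 3, 6 and 12 months; points are arrays, lines are means of 3 arrays. Copper has the lowest mean of both genes at 3 months, 4.89 for Mmp12 and 4.58 for Ccl9, and the tantalum arrays spread widely at 1 and 3 months.

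Some other macrophage genes, among them Cybb and Spp1, had the same array pattern without passing. Of 26 macrophage markers measured, 0 passed in limma, against 0.0436% of all probe sets; 19 had a difference below 0 and 7 above, with a median of -0.33, where the median of all probe sets was 0.01. At an unadjusted p below 0.05, 10 were lower and 2 higher, where 4.84% and 5.77% of all probe sets were. The mean of the list was 7.15, 6.83 and 6.73 in the copper arrays and 7.29, 7.70 and 6.90 in the tantalum arrays, so the groups overlapped and tantalum replicate 2 was the highest. Without it the median was -0.10, and without copper replicate 3 it was -0.16. Against aluminum, depleted uranium, iron, lead and tungsten, with no tantalum array in the reference, the median of the list was -0.02. Of the 26, 2 are among the dimmest 30% of probe sets, and the part of macrophage number in the Ccl9 and Mmp12 differences was not tested. In these tissue samples fewer cells of a type and less RNA per cell cannot be told apart.

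The markers nearest to the threshold were 4. Cd53, a tetraspanin of leukocytes, was at 6.87, 6.36 and 6.46 with copper and 7.97, 8.22 and 7.21 with tantalum, all copper arrays below, a difference of -1.24 ± 0.28 with an adjusted p of 0.0574 in limma. Cybb, the catalytic subunit of the phagocyte NADPH oxidase, was at 8.15, 7.71 and 7.75 against 9.42, 10.17 and 7.89. Here tantalum replicate 3 fell among the copper values, and the difference of -1.29 ± 0.30 had an adjusted p of 0.0799 in limma. Spp1, the secreted matrix protein osteopontin, had 5.87, 5.56 and 5.53 against 7.69, 8.32 and 5.62. Its difference was -1.56 ± 0.37 (adjusted p = 0.0802 in limma), again with tantalum replicate 3 at the copper level. Lyz2, the lysozyme of macrophages and granulocytes, was at 10.09, 9.87 and 9.73 against 11.35, 11.98 and 10.19 (-1.27 ± 0.35, adjusted p = 0.150 in limma). Rgs1, a G protein regulator of leukocytes, and Slamf6, a lymphocyte surface receptor, had differences of -1.66 ± 0.40 and -1.10 ± 0.26 with adjusted p of 0.0802 and 0.0676 in limma. Without tantalum replicate 3, Cd53 stood at -1.53, Cybb at -1.93, Spp1 at -2.36, Rgs1 at -2.77 and Slamf6 at -1.45, and all 5 passed, with adjusted p of 0.00779, 4.25e-05, 4.25e-05, 8.14e-08 and 0.00305 in limma. Without tantalum replicate 2, Cybb stood at -0.79, Spp1 at -1.01 and Rgs1 at -1.08, with adjusted p of 0.340, 0.335 and 0.335 in limma. Slamf6 also passed after a second quantile normalization and after cyclic loess (adjusted p of 0.0293 and 0.0313 in limma), and Cd53 without copper replicate 3 (adjusted p = 0.0493 in limma).

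In 7 of the 26 markers the difference was above 0. Among them, chosen for that sign after the values were seen, were the complement subunits C1qa (0.25 ± 0.11), C1qb (0.27) and C1qc (0.14), the haemoglobin scavenger receptor Cd163 (0.45 ± 0.21) and the mannose receptor Mrc1 (0.33 ± 0.24). The lowest adjusted p among them was 0.412 in limma. Cd163 stood at 8.14, 7.58 and 7.58 with copper and 6.92, 7.23 and 7.80 with tantalum. Among the tantalum arrays replicate 3 was here the highest, where it was the lowest for Mmp12. Cd68, a lysosomal protein of all macrophages, lay on the other side, at 7.75, 7.01 and 7.32 against 8.45, 8.81 and 7.14 (-0.78 ± 0.29, adjusted p = 0.308 in limma).

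**Figure D3:**
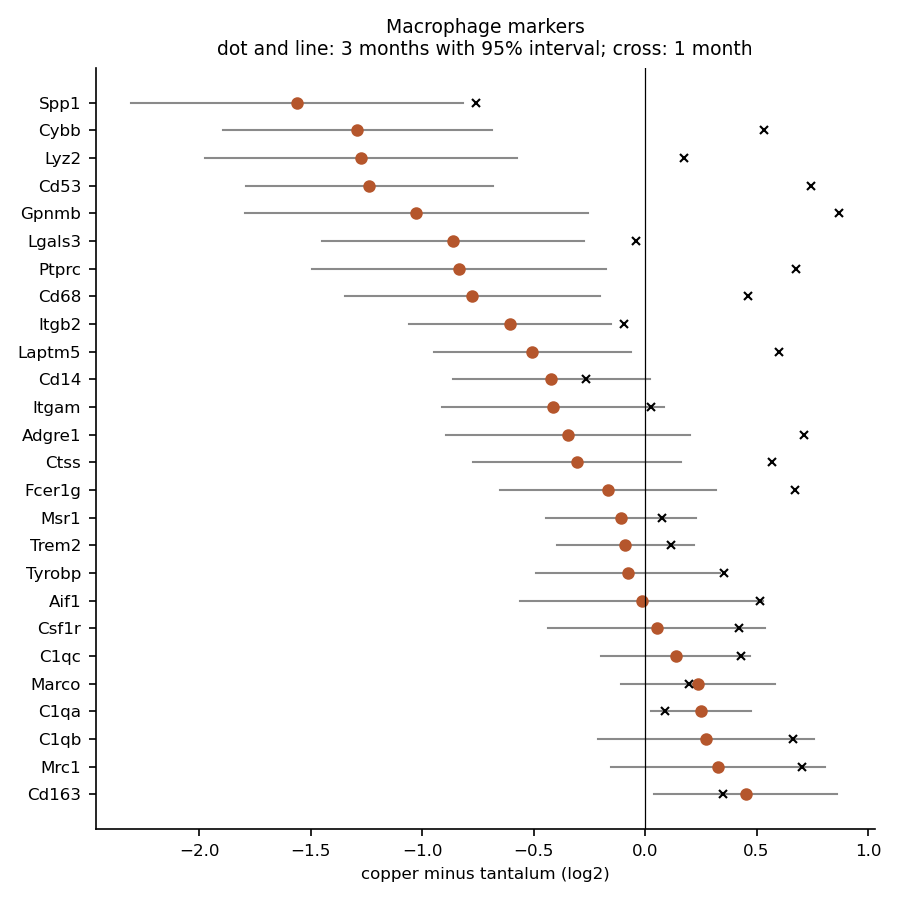
Copper minus tantalum (log2, horizontal axis) for 26 macrophage markers; dots and lines are the 3 month difference and its 95% interval from the model, crosses the 1 month difference. At 3 months the differences run from -1.56 (Spp1) to 0.45 (Cd163). At 1 month the median of the list is 0.43, and Cd53, Cybb and Gpnmb are among the markers above 0.

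Genes of giant cells and of matrix breakdown gave 1 call, Mmp12 itself. Of 12 genes of foreign body giant cells measured, 1 passed and 10 had a difference below 0, where 0.0436% of all probe sets passed and 48.7% lay below 0. The median was -0.18, and it was -0.08 without tantalum replicate 2, -0.10 without copper replicate 3 and -0.28 without tantalum replicate 3. Cd44, an adhesion receptor for hyaluronan, was next, between 6.67 and 7.05 with copper and at 7.73, 7.87 and 7.08 with tantalum (-0.65 ± 0.19, adjusted p = 0.177 in limma). The collagen-cleaving protease Ctsk differed by -0.64 ± 0.23 and the gelatinase Mmp9 by -0.55 ± 0.25, neither passing, and Acp5, an acid phosphatase of osteoclasts and giant cells, by -0.05. Among 15 metalloproteinases and their inhibitors 1 passed and the median was -0.01. Timp1, an inhibitor of metalloproteinases, was nearest, at 6.23, 6.04 and 6.34 against 6.64, 7.12 and 6.67, with all copper arrays below (-0.61 ± 0.20, adjusted p = 0.239 in limma).

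Of 26 chemokines and cytokines measured, 1 passed, Ccl9, and the median was 0.07. Cxcl13, which attracts B cells, had the next largest difference and a very wide spread, at 6.77, 6.51 and 5.39 with copper and 8.19, 9.80 and 5.64 with tantalum (-1.66 ± 0.67, adjusted p = 0.363 in limma). Tantalum replicates 1 and 2 were again the high ones. Ccl6, a chemokine of the same family as Ccl9, differed by 0.62 ± 0.27 and Ccl3 by -0.42 ± 0.21, neither of which passed. The monocyte chemokine Ccl2 differed by -0.34 ± 0.25 and the interleukins Il1b and Il6 by -0.20 and 0.13.

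Neutrophil and lymphocyte markers had 0 calls, with medians of 0.09 over 16 and 0.10 over 22 genes. Of these, 9 and 15 are among the dimmest 30% of probe sets, which themselves had a median of 0.10. S100a8, a calcium-binding protein of neutrophils, was at 3.51, 3.94 and 3.73 with copper and 4.41, 4.40 and 4.38 with tantalum. The tantalum arrays agreed to within 0.0113 (SD), all copper arrays were lower, and the difference of -0.67 ± 0.20 had an adjusted p of 0.177 in limma. The copper values lie below the medians of the control probe sets of the same arrays, so that the size of the difference is not calibrated. Its usual partner S100a9 differed by 0.01 ± 0.21. MHC class II genes had a median of -0.07 over 7 and interferon response genes of -0.07 over 23, with 0 calls in either.

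Genes that handle copper showed no difference that passed. Of 31 listed, 29 were measured, 0 passed in limma (3 had an unadjusted p below 0.05), and 12 lay above and 17 below 0, with a median of -0.03. All copper arrays lay above all tantalum arrays in 5 and below in 2, where 7.86% and 9.94% of all probe sets do so. Slc31a1, the uptake transporter, was at 7.40, 7.52 and 7.82 with copper and 7.79, 7.76 and 7.57 with tantalum. The ranges overlapped, with a difference of -0.13 ± 0.13. The export pumps Atp7a (-0.17 ± 0.13) and Atp7b (-0.01 ± 0.17) and the chaperone Atox1 (-0.19 ± 0.15) overlapped as well. Ccs, which loads copper into superoxide dismutase, was at 7.87, 7.80 and 7.86 against 7.72, 7.53 and 7.66, all copper arrays above (0.21 ± 0.12, adjusted p = 0.564 in limma). Among the mitochondrial chaperones, Cox17 differed by -0.11 ± 0.32, Sco1 by 0.20 ± 0.14, Cox11 by -0.20 ± 0.13 and Cox19 by -0.33 ± 0.13, the last with the smallest p of the list (adjusted p = 0.363 in limma). The superoxide dismutases Sod1 and Sod3 differed by 0.05 and 0.06. Cp, the copper-carrying ferroxidase ceruloplasmin, had the largest difference of the list, 8.39, 8.65 and 8.58 against 7.89, 8.09 and 8.30 (0.44 ± 0.22, adjusted p = 0.465 in limma).

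The metallothioneins did not pass either. Mt1, whose promoter with its 6 metal response elements is printed above, was at 7.24, 7.67 and 7.47 with copper and 7.41, 7.23 and 7.10 with tantalum. The difference of 0.21 ± 0.24 had a 95% interval of -0.28 to 0.69, so that a rise of more than 0.69 lies outside it. Mt2A was at 9.66, 9.63 and 9.46 against 9.39, 9.64 and 9.84 (-0.04 ± 0.24; 95% interval -0.51 to 0.43). The same probe sets were far higher with nickel at the same month: Mt1 reached 9.89, 11.16 and 9.98 there and 8.46, 8.45 and 8.84 with cobalt, above every copper and tantalum array. Copper stood 7th of 9 metals for Mt1 from the lowest and 4th for Mt2A.

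The list of metallothionein and zinc transport genes had 14 measured members, 0 calls and a median of -0.05. Slc30a1, the zinc exporter of the plasma membrane and a target of Mtf1, was lower in every copper array, at 6.72, 6.78 and 6.69 against 7.01, 7.20 and 7.33. The difference of -0.45 ± 0.14 had an adjusted p of 0.208 in limma. Mtf1 itself was at 7.58, 7.60 and 7.48 against 8.01, 7.76 and 8.07 (-0.39 ± 0.15, adjusted p = 0.325 in limma). Mt3, the brain metallothionein, and Mt4, the metallothionein of squamous epithelia, differed by -0.45 ± 0.16 and 0.41 ± 0.21, in opposite directions. Oxidative stress genes under the factor NRF2 had 0 calls among 22 and a median of -0.08, with Hmox1, the heme-degrading enzyme, at 0.23 ± 0.31.

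The named genes higher with copper had levels below the medians of the arrays. Cyp4x1 was at 6.40, 6.31 and 6.39 with copper and 5.86, 5.48 and 5.18 with tantalum. Copper was above in every array, the copper arrays agreed closely, and the difference was 0.86 ± 0.17, 1.82-fold (95% interval 0.52 to 1.21; adjusted p = 0.0208 in limma). Htr1d was at 5.22, 5.36 and 4.27 against 3.84, 4.23 and 3.45. Copper replicate 3 was the low one, just above the highest tantalum array, and the difference was 1.11 ± 0.23 (95% interval 0.66 to 1.56; adjusted p = 0.0216 in limma). Cyp4x1 lost its call without copper replicate 1 or 2 or tantalum replicate 2 or 3 (adjusted p of 0.133, 0.104, 0.123 and 0.173 in limma), and Htr1d without copper replicate 1 or 2 or tantalum replicate 1 or 3 (adjusted p of 0.187, 0.233, 0.114 and 0.175 in limma). The tantalum values of Htr1d average below the medians of the control probe sets, which were between 3.99 and 4.25 in the 6 arrays, so that no fold is given for it.

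Both had their highest mean over the 9 metals with copper. The next metal was tungsten, with 6.01 for Cyp4x1 (arrays at 6.33, 5.92 and 5.78) and 4.33 for Htr1d (4.31, 4.74 and 3.94); its first Cyp4x1 array lay among the copper values, and 2 of its Htr1d arrays lay above the lowest copper array, as did 1 aluminum array at 4.58. Against the other 7 metals Cyp4x1 was higher by 0.57 and Htr1d by 0.92, with adjusted p of 0.0125 and 0.00104 in limma. Against the 5 metals without cobalt and nickel the differences were 0.49 ± 0.13 and 0.89 ± 0.18, of which that of Htr1d passed (adjusted p = 0.0036) and that of Cyp4x1 did not (adjusted p = 0.0932 in limma). At 1 month the differences from tantalum were -0.02 for Cyp4x1 and -0.08 for Htr1d. At 6 and 12 months Cyp4x1 differed by 0.50 and 0.19 and Htr1d by 0.10 and 0.21, and none of these values of 1, 6 or 12 months passed.

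Of the 10 probe sets that passed, 6 have no symbol in the annotation used, 4 of the 6 higher and 2 of the 4 lower, where 35.3% of all probe sets have none. TC0200001063.rn.2 had the smallest adjusted p of all, 0.00522 in limma, at 6.05, 6.73 and 5.19 against 4.58, 4.60 and 4.79 (1.34 ± 0.24). TC1900000810.rn.2 was at 6.37, 6.39 and 6.12 against 5.60, 5.61 and 5.80 (0.62 ± 0.13, adjusted p = 0.0297 in limma). Both were above tantalum in every copper array. TC0100004979.rn.2 was at 5.48, 5.49 and 5.51 against 7.31, 7.51 and 5.13 (-1.16 ± 0.22, adjusted p = 0.0142 in limma). It shared the pattern of Mmp12, with tantalum replicates 1 and 2 high, and against aluminum, depleted uranium, iron, lead and tungsten copper stood at 0.06 ± 0.17 in it. TC0500001811.rn.2 was at 8.13, 8.07 and 7.97 against 8.53, 8.53 and 8.48, the smallest difference that passed (-0.45 ± 0.10, adjusted p = 0.0416 in limma), with both groups tight. In all, 7 of the 10 had groups that did not overlap, where all 3 copper arrays lay above the tantalum arrays in 7.86% and below them in 9.94% of probe sets. A difference of at least 2-fold was reached by 6 of the 10, 3 in each direction, and by 0.113% of all probe sets. The 10 were chosen by p-value in the same arrays, so that neither share is separate support for them.

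Of the 10, 5 were among the dimmest 30% of probe sets, 4 of the 6 higher ones. Here the arrays differed in a way that was not tied to particular genes. Probe sets were ranked by brightness into 10 classes of equal size and set against the mean of the 27 arrays of 3 months. The second dimmest class was higher by 0.12 and 0.11 in copper replicates 1 and 2 and by 0.02 in copper replicate 3, and the second brightest class lay at -0.08, -0.06 and -0.00. In tantalum replicates 1 and 3 the same classes lay at -0.06 and -0.05 and at 0.07 and 0.06. The median of the control probe sets was 3.99 and 4.01 in copper replicates 1 and 2, 4.25 in copper replicate 3 and 4.07 to 4.17 with tantalum. The calls were made again on renormalised values, where the deposited values gave 6 higher and 4 lower. After a second quantile normalization 6 probe sets passed, 2 higher and 4 lower, with 5 of the 10 among them. After cyclic loess 7 passed, 3 higher and 4 lower, with 6 of the 10 among them. Slamf6, which had not passed on the deposited values, was among the lower calls under both renormalizations. Htr1d had an adjusted p of 0.053 and 0.0442 in limma under these 2, and Cyp4x1 of 0.0293 and 0.034. Beyond these values, the part of the shift in the calls was not tested.

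**Figure D4:**
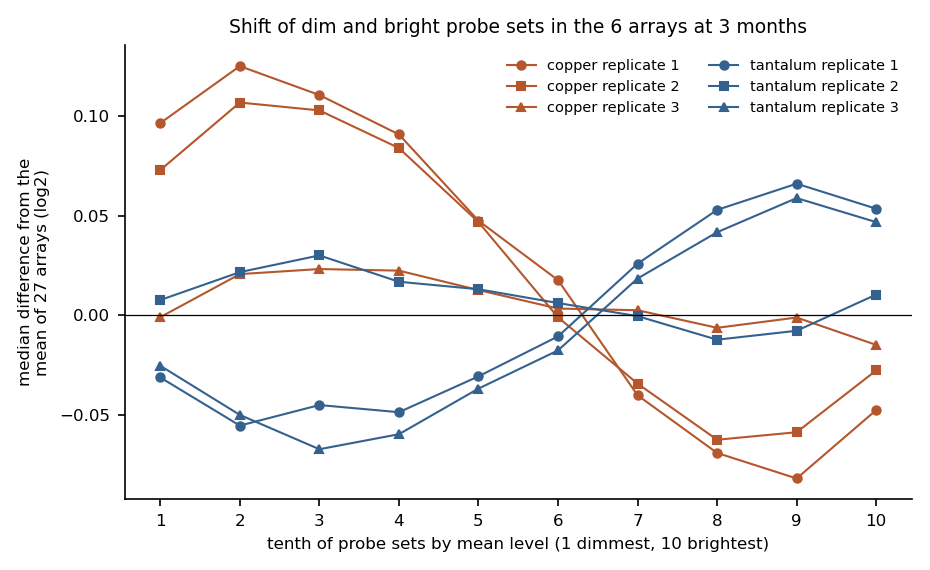
Median difference (log2) of each of the 6 arrays from the mean of the 27 arrays of 3 months, for 10 classes of probe sets from the dimmest to the brightest. Copper replicates 1 and 2 are high in the dim classes and low in the bright ones, copper replicate 3 and tantalum replicate 2 lie near 0, and tantalum replicates 1 and 3 run the other way.

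The olfactory receptor genes, a large family of odorant receptors that are mostly silent outside the nose, are largely dim probe sets here. This list was added after their values were seen. Of 977 measured, 859 are among the dimmest 30%; 755 had a difference above 0, 0 passed in limma, and the median was 0.16, where the dimmest 30% of all probe sets had 0.10. That is 77.3% of the family above 0, against 68.3% of the dimmest 30%. After cyclic loess the median of the family was 0.06; the part of the brightness shift in the rest was not tested. Of the 15 genes named in the higher direction, 6 are olfactory receptors, none of which passed: Or1j16b (0.72 ± 0.17, adjusted p = 0.0676 in limma), Or13a27c (0.78 ± 0.19), Or9s13 (0.66 ± 0.16), Or10ak7e (0.68 ± 0.17), Or2t48b (0.65 ± 0.16) and Or10a3c (0.87 ± 0.23). Members of this family resemble each other in sequence, so that a probe set may read more than one of them.

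The other genes named in the higher direction lay between 0.50 and 0.81 and did not pass. Fbxo2, an F-box protein that recognises glycoproteins, was at 6.98, 7.25 and 7.04 with copper and 6.81, 6.38 and 6.25 with tantalum (0.61 ± 0.14, adjusted p = 0.0574 in limma). Psat1, an enzyme of serine synthesis, was at 4.88, 5.10 and 4.69 against 3.88, 4.33 and 4.07 (0.80 ± 0.20, adjusted p = 0.0908 in limma). All copper arrays lay above all tantalum arrays in both. The rest were Clec2e, a C-type lectin-like protein (0.81 ± 0.20), Mrap, an accessory protein of the corticotropin receptor (0.65 ± 0.16), the sperm kinase gene Smok2a (0.70 ± 0.18), Il20rb, a receptor subunit for interleukins of the IL-20 family (0.50 ± 0.13), and Liat1 (0.50 ± 0.13).

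The other genes named in the lower direction had differences from -0.36 to -0.81. Fbxo31, an F-box protein of ubiquitin ligases, was at 7.92, 7.87 and 7.65 against 8.23, 8.39 and 8.47 (-0.55 ± 0.13, adjusted p = 0.0676 in limma). Cstf3, a subunit of the factor that cleaves pre-mRNA at its 3′ end, was at 6.19, 6.02 and 6.21 against 6.87, 6.66 and 6.90 (-0.67 ± 0.16, adjusted p = 0.0802 in limma). In both, all copper arrays lay below all tantalum arrays, and no tantalum array stood apart. The potassium channel gene Kcnc4 (-0.58 ± 0.14), the Golgi protein gene Dym (-0.54 ± 0.13), the Ras-association protein gene Rassf4 (-0.81 ± 0.21), Ubap2 (-0.38 ± 0.10), Rcor3, a corepressor (-0.38 ± 0.10), and Fam168b (-0.36 ± 0.09) had adjusted p between 0.0802 and 0.137 in limma. Tantalum had the highest mean of the 9 metals at 3 months for Fbxo31, Dym, Rassf4, Ubap2 and Rcor3. It ranked 6th from the lowest for Cstf3 and 7th for Kcnc4 and Fam168b. Copper was 2nd from the lowest for Rassf4, 3rd for Dym and 4th for Ubap2, and the lowest for the rest of these genes. Cstf3 and Kcnc4 were also lower against the 5 other metals without cobalt and nickel, by -0.57 ± 0.12 and -0.49 ± 0.11, and passed there (adjusted p of 0.0133 and 0.0178 in limma).

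Most of the 39 gene lists held no call: 3 had 1 called member each, which were Ccl9 and, in 2 lists, Mmp12, and 36 had none. The slow fibre list had the highest median, 0.38 over 13 genes, with 0 calls. Tnnc1, the slow muscle troponin C, was at 10.63, 11.72 and 11.97 with copper and 10.92, 10.78 and 10.41 with tantalum (0.74 ± 0.43, adjusted p = 0.554 in limma). Copper replicate 1 was at the tantalum level and replicates 2 and 3 were above. The mean of the slow fibre list had the same order, 10.64, 11.48 and 11.59 against 11.13, 10.86 and 10.71, so that the groups overlapped; its median was 0.20 without copper replicate 3 and 0.66 without copper replicate 1. Against aluminum, depleted uranium, iron, lead and tungsten the median of the list was -0.03. Tnni1, the slow troponin I, and Casq2, the cardiac and slow muscle calsequestrin, differed by 0.59 ± 0.38 and 0.56 ± 0.44. For Tnnc1, Tnni1 and Casq2 tantalum had the lowest mean of the 9 metals at 3 months, and copper ranked 7th, 7th and 5th from the lowest.

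Fast fibre genes had a median of -0.10 over 14 and glycolysis genes of -0.12 over 16. Both lists are bright, with median levels of 13.31 and 12.28. The second brightest and the brightest of the 10 classes of probe sets had median differences of -0.09 and -0.07. The part of the brightness shift in these 2 lists was not tested. Collagens and matrix genes had a median of 0.15 over 22. Tnc, the injury-induced matrix protein tenascin C, lay at -0.76 ± 0.25 and Fn1, fibronectin, at -0.60 ± 0.25, while Col3a1, a collagen of scar tissue, lay at 0.48 ± 0.23. None of these 3 passed, with adjusted p between 0.236 and 0.446 in limma. Myod1, a regulator of myogenic cells, lay at -0.57 ± 0.20 (adjusted p = 0.267 in limma) and Myog at 0.27 ± 0.19. Schwann cell and myelin genes had a median of 0.13 over 12, adipocyte genes of 0.20 over 17 and genes of the endothelium of -0.07 over 13.

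**Figure D5:**
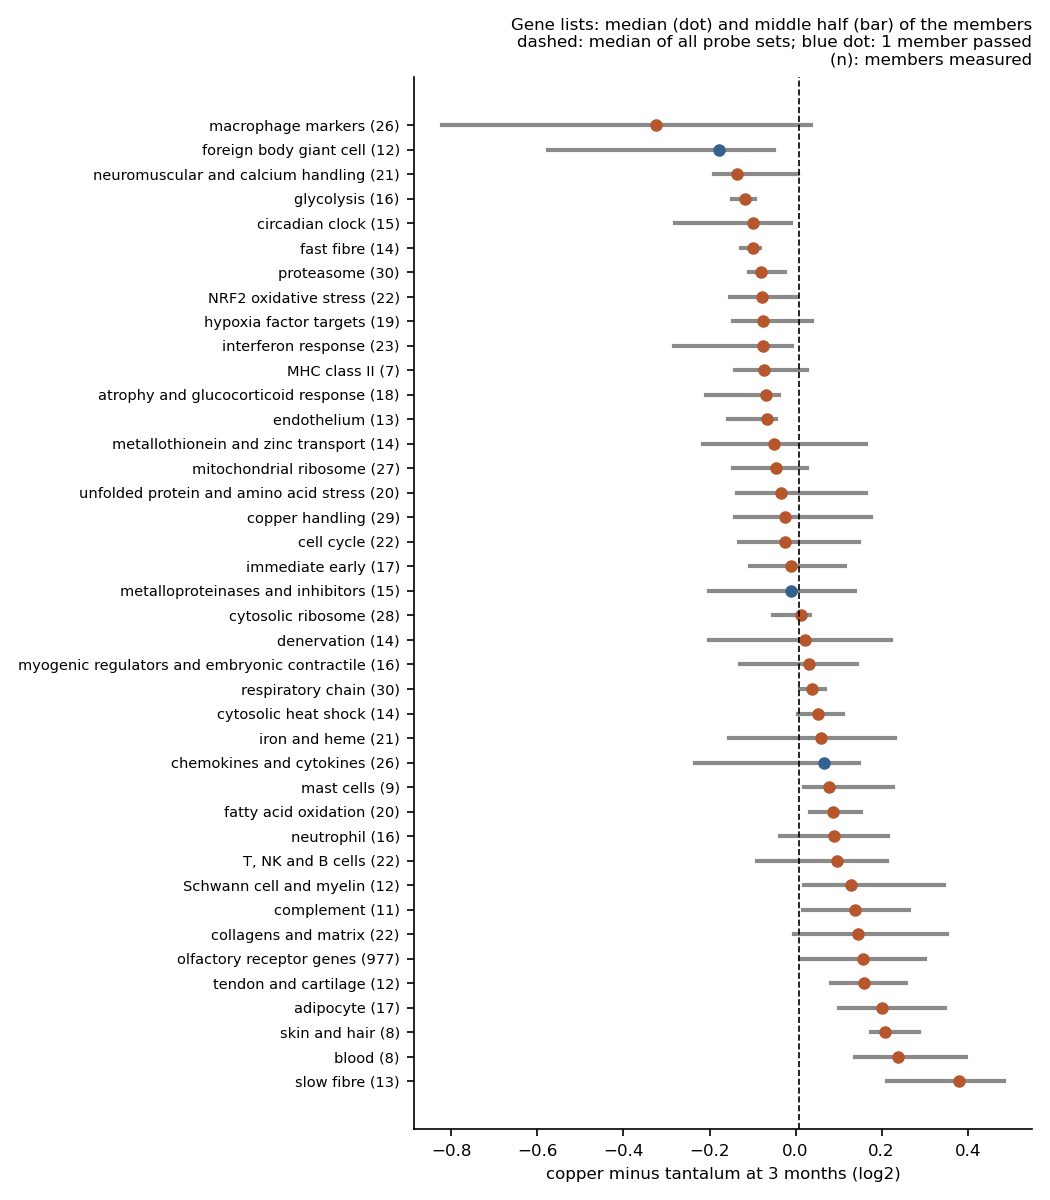
Copper minus tantalum at 3 months (log2) for 39 gene lists and the olfactory receptor genes; dots are medians over the measured members, bars run from the lower to the upper quartile, and the number of members is in brackets. Medians run from -0.33 (macrophage markers) to 0.38 (slow fibre), and the 3 lists with 1 called member are in blue.

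Copper differed from tantalum in 74 probe sets at 1 month (0.322%), 0 at 6 months and 1 at 12 months (0.00436%), so few that no overlap with the 10 can be read from them. At 6 months 1595 (6.95%) had an unadjusted p below 0.05 in limma. The test of the difference itself, 3 months against the mean of 1, 6 and 12 months, gave 0 probe sets in limma (1303, or 5.68%, at an unadjusted p below 0.05), so that for no probe set was the 3 month difference shown to differ from that of the other months together. It gave 31 without copper replicate 3, 15 without tantalum replicate 3 and 1 without copper replicate 1. Against 1 month alone, 8 probe sets passed (0.0349%), 6 with a lower difference at 3 months (0.0261%) and 2 with a higher one (0.00871%). Without copper replicate 2, or without tantalum replicate 1 or 2, 0 passed in limma (1691, 1775 and 2123 had an unadjusted p below 0.05), and without copper replicate 3 or tantalum replicate 3 there were 15 and 21.

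Mpeg1, the pore-forming protein of macrophages, was high with copper at 1 month, at 7.83, 5.97 and 7.64 against 5.81, 5.38 and 6.24 with tantalum. At 3 months it was at 5.82, 5.18 and 4.66 against 5.91, 6.53 and 5.55, so the copper difference went from 1.34 to -0.78, a change of -2.12 ± 0.42 (adjusted p = 0.0241 in limma). Cd53 went from 0.74 to -1.24, a change of -1.98 ± 0.39 (adjusted p = 0.0241 in limma). In Cd53 the copper arrays were at 8.17, 7.23 and 8.08 and the tantalum arrays at 7.16, 6.35 and 7.75 at 1 month. The median of the macrophage list was 0.43 at 1 month, -0.33 at 3 months, -0.17 at 6 months and -0.00 at 12 months. The other 4 lower genes were Emb, Fcrl2, Hmcn1 and S100a8.

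Copper was also set against the other metals, in contrasts that share its 3 arrays with the tantalum comparison but hold no tantalum array. Against the mean of the other 7 metals, 208 probe sets passed (0.906%), 125 higher (0.545%) and 83 lower (0.362%). Without copper replicate 1 or 2 there were 24 and 13. The reference holds cobalt and nickel, in which some genes stood far above all other metals. Il7r, a lymphocyte cytokine receptor, was lower by -1.13 (adjusted p = 0.00064 in limma) against the 7, and the aldo-keto reductase Akr1b8 by -1.28 (adjusted p = 0.0013 in limma). Akr1b8 stood at 5.39, 5.71 and 5.37 with copper, at 5.57, 5.84 and 5.52 with tantalum, and at 8.20, 9.20 and 8.25 with nickel. The copper and tantalum ranges overlapped in this gene, with a difference of -0.15 ± 0.32.

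Against aluminum, depleted uranium, iron, lead and tungsten, 68 probe sets passed (0.296%), 64 higher (0.279%) and 4 lower (0.0174%). Of the 64 higher, 52 have no symbol and 6 are olfactory receptors, where 35.3% and 4.26% of all probe sets do and are. Or10ak7e was at 7.86, 7.62 and 7.31 with copper, above each of the 15 arrays of these metals, which reached 7.13 at most. Or1e18, at 5.58, 5.26 and 3.42 with copper, owed its difference of 1.28 to copper replicates 1 and 2. The 4 lower genes were Cstf3, Kcnc4, C11h21orf91 and Zfp3. Zfp3, a zinc finger protein, was at 5.67, 5.80 and 5.92 with copper, below the 15 arrays of the 5 metals, the lowest of which was at 6.14. Nickel, which is not among the 5, had a Zfp3 mean of 5.85, within the copper values. Without copper replicate 1 or 2, 0 probe sets passed in limma (1304 and 1262 had an unadjusted p below 0.05), and without copper replicate 3 there were 213.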

How the data were processed

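The authors deposited log2 intensities of Clariom S Rat arrays, made by robust multi-array averaging (RMA) in oligo (R 4.0.1), per the submitters' processing notes. A single RMA run is not stated, and the annotation's genome build is not given in the sources used here. RMA forces like distributions on all arrays, so that only relative changes show, and it compresses differences of dim probe sets. Of 22977 probe sets, 23 controls were left out; 14855 have 1 symbol in the platform annotation, all matched by gene ID in a RefSeq table, and 8099 have none. Of 3 symbols on 2 probe sets each, the brighter one was used.

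limma 3.58.1 under R 4.3.3 (lmFit and eBayes, with 70 residual degrees of freedom and 7.25 from the prior) fitted 1 mean per metal and month to 35 groups of 3 arrays, with no block and no filter. Tests were two-sided; in each of 8 comparisons p-values were adjusted by Benjamini-Hochberg over 22954 probe sets. The script was tested on simulated data. The number of arrays limits the precision.

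Genes named are, in each direction, those that passed and then those with the smallest p up to 15; up to 4 members of a list; 5 per direction of other contrasts; and the copper transporters, chaperones and metallothioneins. Of 799 entries in 39 lists, 699 were measured. The comparison, lists and rule were chosen with earlier results of these data known. Alternatives were a replicate block, other array sets, array weights, an intensity trend, a dim-probe filter, renormalization, another threshold or reference, and leaving out each array.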

Additional observations from a re-analysis of the deposited data

Results flagged for a closer look

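For 8 probe sets the copper minus tantalum difference at 3 months differed from that at 1 month by limma's test of the change. The change was -2.12 in Mpeg1, a pore-forming protein of macrophages, -1.98 in Cd53, a leukocyte tetraspanin, -1.85 in Emb, a cell adhesion protein, and -1.64 in Fcrl2, an Fc receptor-like protein. It was -1.51 in Hmcn1, a basement membrane protein, and -1.37 in S100a8, a neutrophil protein. It was 1.15 in the olfactory receptor gene Or1j16b and 1.09 in TC1300001420.rn.2, which has no symbol here.

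The months contributed differently. In Emb, copper was at 8.27, 7.03 and 6.98 at 1 month and 6.05, 5.41 and 5.53 at 3 months, while tantalum was at 6.23, 6.09 and 6.53 and at 6.57, 6.73 and 5.82. In Fcrl2, the copper values went from 7.01, 6.14 and 7.14 to 5.45, 5.36 and 5.32. In S100a8 tantalum was at 3.35, 3.84 and 3.55 and then at 4.41, 4.40 and 4.38, with copper at 4.33, 4.07 and 4.46 and then 3.51, 3.94 and 3.73. These copper values of 3 months lie below the control medians of their arrays (3.99, 4.01 and 4.25), so that the size of the change in S100a8 is not calibrated. In Or1j16b both metals contributed: copper was at 4.72, 4.61 and 4.83 at 1 month and at 5.38, 5.07 and 5.22 at 3 months, and tantalum at 5.19, 4.91 and 5.33 and then at 4.44, 4.61 and 4.45.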

How the results depend on the processing

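The 10 calls of the main comparison became 0 in the 6 arrays alone, 0 in the 27 arrays of 3 months, 5 without the dimmest 30% of probe sets, 6 after a second quantile normalization (2 higher), 306 with array weights (197 higher), 2 at an adjusted p below 0.01 and 65 with 6 metals as the reference (61 higher), and 0 to 141 leaving out 1 array. Under cyclic loess, chosen after seeing the data, there were 7 (3 higher). The 8 of the change from 1 month became 57 with array weights, 0 at 0.01 and 0 to 21 leaving out 1 array, and 7 (1 higher, against 2 of 8) under both renormalizations. The 0 of the change from the other months became 1 after a second quantile normalization, 1 under cyclic loess, 13 with array weights and 0 to 31 leaving out 1 array. The 208 against 7 metals became 136 without the dimmest 30%, 695 with array weights, 66 at 0.01 and 13 to 269 leaving out 1 array, and split as 83 higher and 84 lower after quantile normalization, 73 and 99 under cyclic loess and 64 and 89 in the 27 arrays. The 68 against 5 metals became 0 in the 27 arrays, 323 with array weights, 28 at 0.01 and 0 to 213 leaving out 1 array.

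Same-numbered copper and tantalum arrays were not treated as paired in the main model. Their deviations correlated at -0.11, 0.05 and -0.02, where those of differently numbered arrays correlated at -0.11 to 0.13. With 3 arrays per group these values cannot show whether the arrays were paired. With the replicate number as a block, 48 passed in the main comparison, among them all 10, 13 in the change from 1 month and 103 against 5 metals. With an intensity trend and robust estimates 7 passed in the main comparison, 5 higher and 2 lower. The 4 named genes that passed lost their call in 26 of 54 pairs of gene and setting, and the 26 that did not pass gained one in 68 of 355, 13 in each direction with array weights. In 5 of the 14 settings the difference is the same by construction. The median of the copper handling list lay between -0.0456 and 0.0166 leaving out 1 array, above 0 without copper replicate 1, and stood at 0.0062 after a second quantile normalization and 0.0328 under cyclic loess; that of the metallothionein list turned to 0.0197 after quantile normalization and 0.0208 under cyclic loess. The cause was not tested. Dim probe sets limit the calls: 5 of the 10 lie among the dimmest 30%.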

Other observations

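Blood genes lay above 0 in all 8 measured members at 3 months, with a median of 0.24 and 0 calls. Against aluminum, depleted uranium, iron, lead and tungsten the median of the list was 0.08. The mean of the list was 7.02, 7.12 and 7.18 with copper and 6.74, 6.96 and 6.75 with tantalum. In the arrays of the other 7 metals at 3 months it ran from 6.85 to 7.08. Ppbp, a chemokine of platelets, was at 5.83, 5.64 and 5.71 with copper and 4.86, 5.29 and 5.14 with tantalum, a difference of 0.63 ± 0.17 (adjusted p = 0.119 in limma). Slc4a1, the anion exchanger of red cells, was at 6.19, 6.62 and 6.50 against 5.95, 5.76 and 5.97 (0.54 ± 0.17, adjusted p = 0.208 in limma). Both had all copper arrays above all tantalum arrays, as did 4 of the 8, against 7.86% of all probe sets.

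Genes of the daily clock had a median of -0.10 over 15 and 0 calls. Nr1d1, a repressor of the clock, was at 10.54, 10.21 and 10.53 with copper and 11.25, 10.98 and 11.02 with tantalum (-0.66 ± 0.18, adjusted p = 0.138 in limma). Bhlhe40 (-0.33 ± 0.11), Dbp (-0.34 ± 0.14) and Clock (-0.23 ± 0.08) were next, with adjusted p of 0.255, 0.364 and 0.308 in limma. Of the 15, 5 had all copper arrays below all tantalum arrays and 1 above, against 9.94% and 7.86% of all probe sets. The times of day at which muscle was taken are not used here.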
